A study of Mus musculus with 12 samples.

Results

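Hs3st1 encodes heparan sulfate glucosamine 3-O-sulfotransferase 1. It is 1 of the 909 genes that could be named in an expression study of mouse melanoma tumours, and it was found by matching the RefSeq transcript in a probe set's name to the gene symbol. It had 1 probe set. It was set beside the 5 other measured genes whose symbol starts with Hs3st. Hs3st1 was singled out because its level differed between the 2 tumour lines in these same arrays, so its line values are given below as a description and carry no p-value.

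The study asked how galectin-3 (Lgals3), a lectin made both by melanoma cells and by host tissue, shapes melanoma growth. RNA from 12 tumours was measured on 1 array each, in 4 groups of 3. Tm1N3 tumours, labelled as expressing galectin-3, grew in galectin-3 knockout mice (Gal3 -/-) or in wild-type mice. Tm1G3 tumours, labelled as galectin-3 silenced, grew in the same 2 kinds of host. Per the series' design text, the melanoma line had itself lost galectin-3 expression, and the galectin-3 positive cells were made from it with a plasmid, so both lines share that origin. The cells and vessels that a knockout host sends into a Tm1N3 tumour thus lack galectin-3 while the tumour cells are labelled as having it. Which line carries the plasmid was not settled here, and the galectin-3 status of Tm1N3 and Tm1G3 rests on the labels alone. The host's age, the time of sampling and whether a line is 1 clone are not given in the sources used here. The sample titles carry 12 different leading numbers, but the labels do not state that each replicate is a separate animal, so p-values reflect how far these samples differ and no more.

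Heparan sulfate is a long sugar chain carried by core proteins of the cell surface and the matrix, and its sulfate groups decide which proteins it binds. The 3-O-sulfotransferases add the rarest of these sulfates, one of the last steps in building the chain. The enzyme made by Hs3st1 is best known for completing the short stretch that binds antithrombin, the blood's inhibitor of clotting proteases. The enzymes of Hs3st2, Hs3st3a1, Hs3st3b1 and Hs3st6 make chains that glycoprotein D of herpes simplex virus can bind, and that of Hs3st5 makes both kinds of site.

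The DNA around the annotated start of Hs3st1 is shown as the annotated promoter of the gene whose level differed; where transcription began in these tumours was not measured. It spans chr5:39644582-39644881 of GRCm38.p6, on the minus strand, 250 bases before to 50 bases after the start, as RefSeq gives it. Each CpG, the pair of letters that can carry DNA methylation, is in capitals.
Hs3st1: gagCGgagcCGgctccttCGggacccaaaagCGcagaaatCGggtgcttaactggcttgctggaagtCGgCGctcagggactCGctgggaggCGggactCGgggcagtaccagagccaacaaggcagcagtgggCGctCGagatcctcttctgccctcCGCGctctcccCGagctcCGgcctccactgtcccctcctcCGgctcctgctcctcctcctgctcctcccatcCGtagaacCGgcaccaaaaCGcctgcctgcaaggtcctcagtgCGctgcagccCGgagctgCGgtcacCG
The window holds 24 CpG, more than 80.0% of 32851 mouse promoters of the same length, whose median is 7, and 67.0% of its bases are G or C, against a median of 52.7%. The promoters of Hs3st2, Hs3st3a1, Hs3st3b1 and Hs3st5 hold 27, 23, 23 and 9 CpG, and that of Hs3st4, which had no named probe set, holds 47. Short motifs were searched on both strands. The Hs3st1 window has no GC box, written GGGCGG and found in 35.7% of all promoters. It has neither form of E-box searched, CACGTG with 7.15% of promoters or the form CATGTG with 14.2%. The AP-1 letters TGANTCA, found in 7.81%, and the letters TATAAA of the TATA box, found in 13.6%, are also missing from it. The GC box occurs at 1 place each in the promoters of Hs3st2, Hs3st3a1 and Hs3st5, at 2 in that of Hs3st3b1 and at 3 in that of Hs3st4. The form CACGTG occurs at 1 place in the promoter of Hs3st3a1 and not in those of Hs3st2, Hs3st3b1 and Hs3st5. A match or its absence describes only these letters. Methylation was not measured in this study.

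The table held 1246 probe sets per array on a log2 scale, between 2.14 and 13.9. Array medians lay within 0.0945 of each other, and any 2 arrays correlated at 0.976 to 0.998 across probe sets. Only 2 of 12 listed melanocyte markers, Kit and Mcoln3, were among the named probe sets, so the labelled tumour type could not be checked against its pigment genes. Lgals3 itself read 9.35, 9.69 and 10.55 in knockout hosts and 9.80, 9.72 and 10.39 in wild-type hosts with Tm1N3 tumours. With Tm1G3 tumours Lgals3 read 9.15, 9.80 and 8.98 in knockout hosts and 9.52, 9.33 and 9.99 in wild-type hosts. The lines overlapped, and the line difference of 0.46 (95% interval -0.06 to 0.97) did not pass limma's test (adjusted p = 0.376). Lgals3 thus did not separate the lines or the hosts as labelled, and its probe set carries the suffix for shared probes. In knockout hosts with Tm1G3 tumours, the silenced line by label, its mean was 9.31, above 87.5% of probe sets. In wild-type hosts with Tm1N3 tumours the mean was 9.97, above 92.4%. Why Lgals3 read high in the former was not tested.

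Hs3st1 was higher in every Tm1N3 tumour than in any Tm1G3 tumour, as were 15 of 1246 probe sets in all (1.20%); this contrast chose the gene. In Tm1N3 tumours its log2 level was 5.29, 6.80 and 5.88 in knockout hosts (replicates 1, 2 and 3) and 7.07, 6.99 and 5.91 in wild-type hosts. In Tm1G3 tumours it was 4.55, 4.44 and 4.37 in knockout hosts and 4.65, 4.36 and 4.25 in wild-type hosts. The 6 Tm1N3 tumours thus ranged widely and the 6 Tm1G3 tumours hardly, with 0.65 on the log2 scale, or 1.57-fold, between the lowest Tm1N3 and the highest Tm1G3 value. The log2 level averaged 6.32 ± 0.73 in Tm1N3 tumours and 4.44 ± 0.14 in Tm1G3 tumours (SD, n = 6 each). It stayed above 4.22, the bound used to leave out the dimmest 25% of probe sets, on every array, but lay close to it in Tm1G3 tumours. There it read above only 25.3% to 32.3% of the probe sets of the same array. Signal over background is unknown, so how far background limits the fold difference and the small Tm1G3 spread was not tested. Its probe set also carries the suffix for shared probes. Which transcripts share them was not checked, so the signal may hold a related one.

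**Figure D1:**
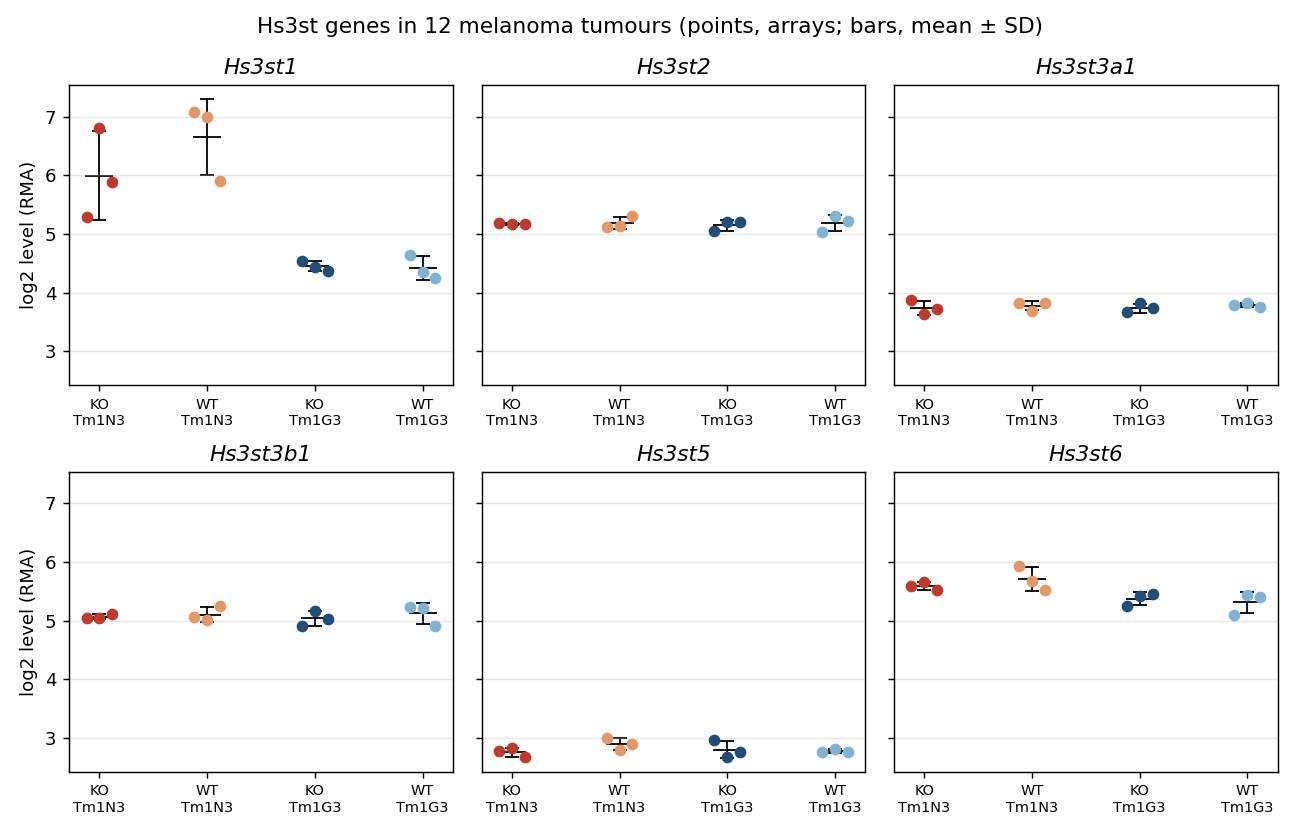
Log2 level of the 6 measured Hs3st genes in the 12 tumours, by tumour line and host (KO, knockout; WT, wild type). Points are arrays in the order of replicates 1 to 3, and bars are the mean and SD of 3 arrays. Hs3st1 spans 5.29 to 7.07 in Tm1N3 tumours and 4.25 to 4.65 in Tm1G3 tumours, while Hs3st2, Hs3st3a1, Hs3st3b1 and Hs3st5 overlap between all groups.

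Tm1N3 tumours exceeded Tm1G3 tumours in both hosts. In knockout hosts the Hs3st1 means were 5.99 ± 0.76 in Tm1N3 tumours and 4.45 ± 0.087 in Tm1G3 tumours (SD, n = 3 each), a log2 difference of 1.54 ± 0.37 (SE; 95% interval 0.72 to 2.36), or 2.90-fold. In wild-type hosts they were 6.66 ± 0.65 in Tm1N3 tumours and 4.42 ± 0.20 in Tm1G3 tumours (SD, n = 3 each), a log2 difference of 2.24 ± 0.37 (SE; 1.42 to 3.06), or 4.72-fold. Averaged over hosts the difference was 1.89 ± 0.26 (SE; 1.31 to 2.47), or 3.70-fold. The averaged Hs3st1 difference was the largest of all 1246 probe sets on the side higher in Tm1N3, and the next, that of Il3ra, was 0.95. Of the variance of Hs3st1 over the 12 arrays, 79.5% lay between lines, 2.21% between hosts, 2.75% in the interaction of line and host and 15.6% within groups. Leaving out knockout-host Tm1N3 replicate 2 lowered the knockout-host difference to 1.13, and leaving out replicate 1 of that group raised it to 1.89.

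**Figure D2:**
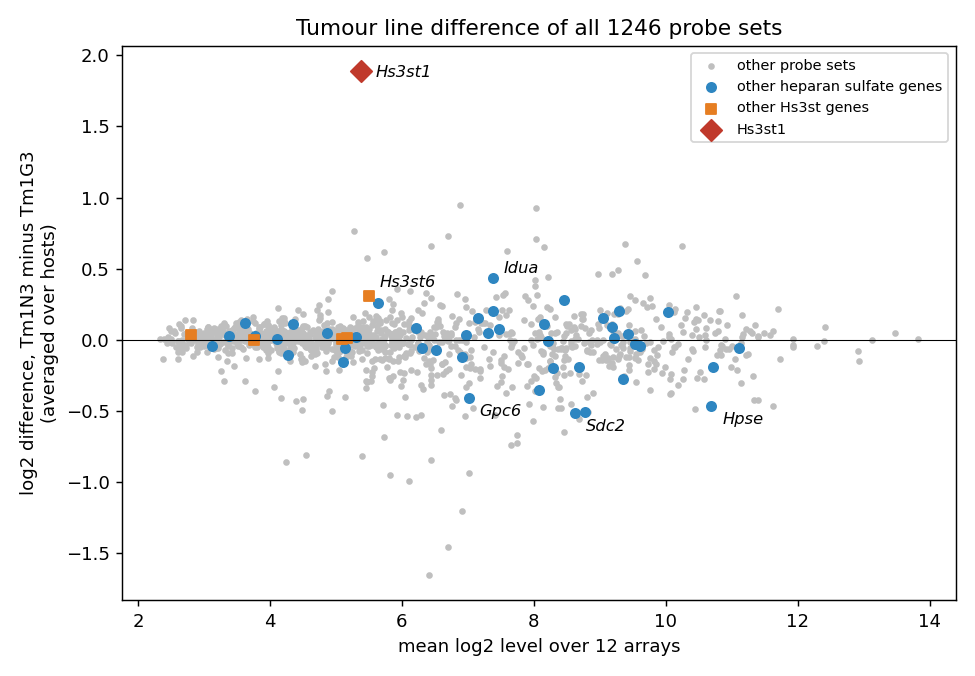
Log2 difference of Tm1N3 minus Tm1G3 tumours, averaged over hosts, against mean log2 level over the 12 arrays, for all 1246 probe sets (points). Hs3st1 (diamond) lies at 1.89, with the other Hs3st genes (squares) between 0.00 and 0.31 and the other heparan sulfate genes (blue) between -0.52 and 0.43.

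Neither line showed a host difference of Hs3st1 that passed the test. In Tm1N3 tumours the mean log2 level was 5.99 in knockout hosts and 6.66 in wild-type hosts. The knockout group's range of 5.29 to 6.80 overlapped the wild-type range of 5.91 to 7.07. Same-numbered arrays of the 2 hosts were taken as pairs, by a number that the labels do not explain. Knockout minus wild-type, they differed by -1.78, -0.19 and -0.03 for replicates 1, 2 and 3, mainly in the first. The limma fit and the exact test given next did not use these pairs. The difference of -0.67 ± 0.37 (SE; 95% interval -1.49 to 0.15) did not pass (limma adjusted p = 1.00; two-sided exact permutation p = 0.2). In Tm1G3 tumours the mean was 4.45 in knockout hosts and 4.42 in wild-type hosts, again with overlap, and the pairs differed by -0.10, 0.09 and 0.12. That difference was 0.04 ± 0.37 (SE; -0.78 to 0.86), with limma adjusted p = 0.986 and exact permutation p = 0.8. The SE of 0.37 comes from a spread shared by all groups, although Hs3st1 varied more in Tm1N3 tumours. Limma fits of only the groups compared gave an SE of 0.12 in Tm1G3 and 0.46 in Tm1N3 tumours, and neither host difference passed. A limma fit with replicate numbers as a random block within a line used the pairs and gave an SE of 0.32. Neither host difference passed in that fit (limma adjusted p = 0.686 in Tm1N3 and 0.977 in Tm1G3 tumours). With 3 arrays against 3 the exact test cannot go below 0.1. Averaged over lines the host difference was -0.31 ± 0.26 (SE; -0.89 to 0.27; limma adjusted p = 0.795). The line difference in knockout hosts minus that in wild-type hosts was -0.70 ± 0.52 (SE; -1.86 to 0.46; limma adjusted p = 0.996), an interval that reaches beyond 1 in size. Limma called 0 of 1246 probe sets (0%) in the Tm1N3 host comparison, the Tm1G3 host comparison, their average and the interaction. At an unadjusted p under 0.05 there were 54, 77, 78 and 35 in that order.

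Ordered by mean, the groups ran from wild-type-host Tm1N3 (6.66) through knockout-host Tm1N3 (5.99) and knockout-host Tm1G3 (4.45) to wild-type-host Tm1G3 (4.42). Neighbours of the same line overlapped, and no overlap occurred between the lines, where 0.75 separated the lowest knockout-host Tm1N3 array from the highest knockout-host Tm1G3 array.

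The Hs3st1 level also varied more among Tm1N3 tumours than among Tm1G3 tumours. The pooled SD within host groups was 0.707 in Tm1N3 tumours and 0.157 in Tm1G3 tumours, 4.49 times as large. In Tm1N3 tumours 97.4% of probe sets had a smaller such SD than Hs3st1 and the median was 0.121. In Tm1G3 tumours the share was 69.6% and the median 0.114. The highest Tm1N3 array exceeded the lowest by 3.43-fold, and the highest Tm1G3 array its lowest by 1.32-fold.

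Markers of other cell types varied among the same Tm1N3 tumours. A tumour holds host cells as well as melanoma cells, and in bulk RNA fewer cells of a type and less RNA per cell cannot be told apart. The summed linear level of the 5 measured macrophage markers (of 12 listed) was 443, 590 and 1570 in knockout hosts with Tm1N3 tumours (replicates 1, 2 and 3) and 676, 675 and 1360 in wild-type hosts. That of the 5 measured fibroblast markers (of 12) was 415, 555 and 1574 in knockout hosts with Tm1N3 tumours and 598, 622 and 1510 in wild-type hosts. Replicate 3 was highest for both lists in each host. Its Hs3st1 level was 5.88 in the knockout host, between the other replicates, and 5.91 in the wild-type host, the lowest of 3. In Tm1G3 tumours the macrophage sum ran from 805 to 1087 in knockout hosts and from 750 to 1220 in wild-type hosts, and the fibroblast sum from 609 to 1212 in knockout hosts and from 653 to 1167 in wild-type hosts. The part of these cells in the spread of Hs3st1 was not tested.

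Most markers of other cell types did not pass the test between lines, and single genes did. Limma called 53 of all 1246 probe sets (4.25%) in the averaged line comparison, 16 higher (1.28%) and 37 lower (2.97%) in Tm1N3. At an unadjusted p under 0.05 the share of all probe sets was 16.4%. Of 5 macrophage markers limma called 0 (also 0 at an unadjusted p under 0.05), their median difference was -0.33, and the largest were Adgre1 (F4/80), at -0.54, and Csf1r, the receptor for colony-stimulating factor 1, at -0.37. Of 5 fibroblast markers Fbln5, an elastic fibre protein, was called higher by 0.76 (limma adjusted p = 0.00379), while Dcn (decorin) was at -0.51. Of 5 endothelial markers, from the cells that line vessels, Icam2 was called lower at -0.40 (limma adjusted p = 0.0215), and Emcn (endomucin) was at 0.23. The 5 summed endothelial markers overlapped between lines, at 1056 to 1733 in knockout and 1343 to 1853 in wild-type hosts with Tm1N3 tumours, against 1402 to 2104 in knockout and 1219 to 1643 in wild-type hosts with Tm1G3 tumours. Of 4 T and NK cell markers the chemokine gene Ccl5 was called lower at -0.65 (limma adjusted p = 0.0113), with Klrd1 (CD94) at -0.15. Their summed level was 319 to 356 in knockout and 273 to 403 in wild-type hosts with Tm1N3 tumours. With Tm1G3 tumours it was 461 to 600 in knockout and 394 to 532 in wild-type hosts. This sum is mostly Ccl5, which read 7.78 to 9.08 on the log2 scale, so it largely repeats the Ccl5 difference. The other 3 were not called, and the median difference was -0.08. The mean log2 level of the 4 overlapped between lines, at 4.93 to 5.22 in Tm1N3 and 5.09 to 5.46 in Tm1G3 tumours. None of the 4 neutrophil probe sets was called, with Csf3r at -0.20 and Cxcr2 at -0.09. Of the melanocyte markers, Mcoln3, a cation channel gene, was called higher by 0.93 (limma adjusted p = 0.00301) and Kit, the receptor for stem cell factor and also the 1 measured mast cell marker, lower at -0.99 (limma adjusted p = 0.00379). No sum is at 0, as these log2 values have no true zero. Their part in the Hs3st1 difference was not tested.

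Of the 5 other Hs3st genes, 0 passed limma's test in the averaged line comparison, where 4.25% of all probe sets did. At an unadjusted p under 0.05, as for 16.4% of all probe sets, there was 1, Hs3st6. Its log2 level in Tm1N3 tumours was 5.60, 5.66 and 5.53 in knockout hosts and 5.93, 5.68 and 5.53 in wild-type hosts. In Tm1G3 tumours Hs3st6 read 5.24, 5.43 and 5.45 in knockout hosts and 5.10, 5.43 and 5.40 in wild-type hosts. All 6 Tm1N3 arrays of Hs3st6 lay above all 6 Tm1G3 arrays, as for 15 of 1246 probe sets (1.20%). The Hs3st6 difference was 0.31 ± 0.08 (SE; 95% interval 0.13 to 0.50; limma adjusted p = 0.0687). Without wild-type-host Tm1N3 replicate 3 it was 0.36 and passed (limma adjusted p = 0.0468).

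The other 4 varied little, and none passed the test. Hs3st2 lay between 5.04 and 5.31 on all 12 arrays, with a line difference of 0.01 (95% interval -0.12 to 0.14; limma adjusted p = 0.964). Hs3st3a1 lay between 3.64 and 3.87, with a line difference of -0.00 (-0.12 to 0.11; limma adjusted p = 0.998). Hs3st3b1 lay between 4.91 and 5.25, with a line difference of 0.01 (-0.16 to 0.17; limma adjusted p = 0.994). Hs3st5 lay between 2.68 and 3.00, with a line difference of 0.04 (-0.10 to 0.17; limma adjusted p = 0.878). Hs3st3a1 and Hs3st5 read below the bound of the dimmest 25% of probe sets. Levels of different probe sets are not on a common scale, so the genes were compared only by their differences. No host difference of these 5 genes passed in either line (exact permutation p between 0.2 and 1.0). Hs3st4 had no named probe set, so its level was not analysed here.

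Beyond this family, 43 of 56 listed genes for making, carrying and breaking down heparan sulfate were measured. In the averaged line comparison 1 was called higher in Tm1N3, 3 lower and 39 not, with a median difference of 0.01 against 0.00 over all probe sets. The 4 called are 9.30% of the 43, beside the 4.25% called among all probe sets. In the line comparison within wild-type hosts, where limma called 0.883% of all probe sets, 0 of the 43 were called, and likewise within knockout hosts, where it called 0.722%. At an unadjusted p under 0.05 these were 8 of the 43 in wild-type hosts, 5 in knockout hosts and 12 in the average. The shares of all probe sets at that cutoff were 13.1%, 9.47% and 16.4% in the same order. The host comparisons by limma called 0 of the 43 in Tm1N3 tumours, in Tm1G3 tumours and in their average. At an unadjusted p under 0.05 there were 0, 4 and 0, beside 4.33%, 6.18% and 6.26% of all probe sets.

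**Figure D3:**
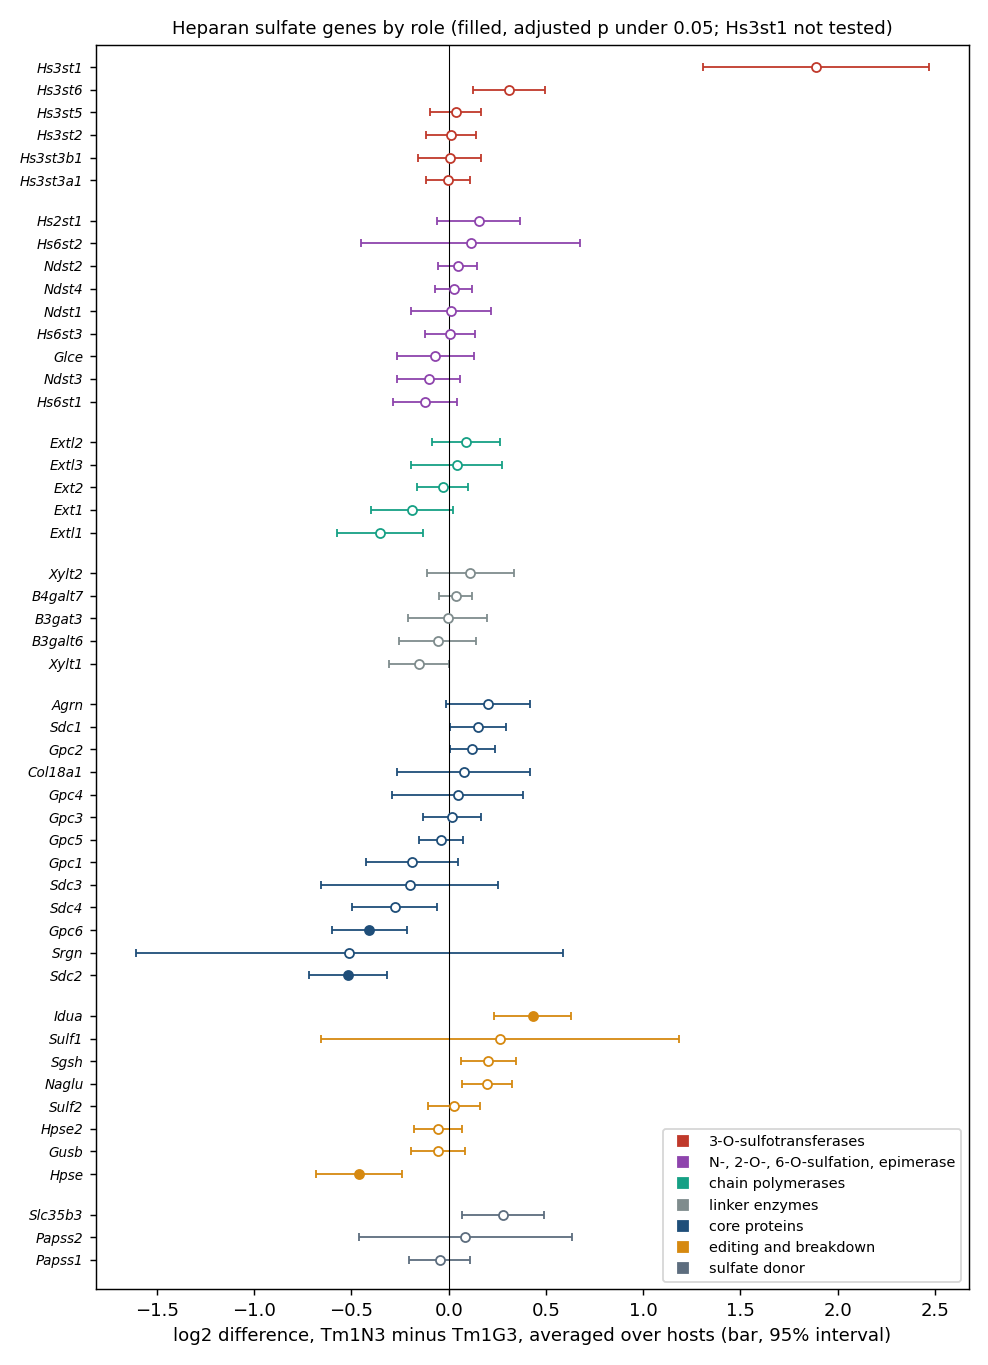
Log2 difference of Tm1N3 minus Tm1G3 tumours, averaged over hosts, for Hs3st1, the 5 other Hs3st genes and 43 other heparan sulfate genes, grouped by role. Points are limma estimates from 12 arrays, bars are 95% intervals, and filled points have an adjusted p under 0.05; Hs3st1 was not tested. Filled points are Idua above 0 and Sdc2, Gpc6 and Hpse below 0.

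The enzymes that shape the chain before 3-O-sulfation showed no called line difference, beside 4.25% called among all probe sets. At that share lists this short can hold no call. None of 5 measured linker genes, which start the chain on a core protein, was called; Xylt1 and Xylt2, the xylosyltransferases, were at -0.15 and 0.11, and the galactosyltransferase gene B3galt6 at -0.06. None of 5 genes of the chain polymerase family was called, with Extl1 at -0.35 (limma adjusted p = 0.0845), Ext1 at -0.19 and Extl2 at 0.09. None of the 9 genes for N-deacetylation and sulfation, epimerization, 2-O- and 6-O-sulfation was called. The widest were Hs2st1, the 2-O-sulfotransferase, at 0.16 and the 6-O-sulfotransferase genes Hs6st1 and Hs6st2 at -0.12 and 0.11. The 3 measured genes for the sulfate donor PAPS were not called either. Slc35b3, a carrier of PAPS into the Golgi, was at 0.28 (limma adjusted p = 0.153), and the PAPS synthase genes Papss2 and Papss1 were at 0.09 and -0.05.

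Among 13 measured core protein genes 2 were called lower in Tm1N3 tumours (15.4%, beside 2.97% of all probe sets called lower). Sdc2, which encodes the membrane proteoglycan syndecan-2, read 8.23, 8.42 and 8.25 in knockout and 8.31, 8.69 and 8.27 in wild-type hosts with Tm1N3 tumours. With Tm1G3 tumours Sdc2 read 8.96, 8.93 and 8.95 in knockout and 9.02, 8.81 and 8.59 in wild-type hosts. Wild-type-host Tm1N3 replicate 2 lay above wild-type-host Tm1G3 replicate 3, the other Tm1N3 arrays lay below all Tm1G3 arrays, and the Sdc2 difference of -0.52 ± 0.09 (SE) passed (limma adjusted p = 0.0092), also with any 1 array left out.

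Gpc6, which encodes the lipid-anchored proteoglycan glypican-6, read 6.46, 6.87 and 6.82 in knockout and 6.79, 7.10 and 6.82 in wild-type hosts with Tm1N3 tumours. With Tm1G3 tumours Gpc6 read 7.31, 7.24 and 7.11 in knockout and 7.12, 7.34 and 7.17 in wild-type hosts. Every Tm1N3 array of Gpc6 was below every Tm1G3 array, as for 26 of 1246 probe sets (2.09%). The Gpc6 difference was -0.41 ± 0.09 (SE; limma adjusted p = 0.0235). The Gpc6 probe set carries the suffix for shared probes. Srgn, the granule proteoglycan serglycin, was at -0.51 ± 0.50 (SE; limma adjusted p = 0.735).

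Of 8 measured genes for trimming and breakdown, 1 was higher and 1 lower. Idua encodes alpha-L-iduronidase, a lysosomal enzyme that removes iduronic acid from the end of heparan and dermatan sulfate. It read 7.37, 7.73 and 7.46 in knockout and 7.84, 7.72 and 7.48 in wild-type hosts with Tm1N3 tumours. With Tm1G3 tumours Idua read 7.27, 7.19 and 7.04 in knockout and 7.35, 7.07 and 7.09 in wild-type hosts. All 6 Tm1N3 arrays were above all 6 Tm1G3 arrays, as for 15 of 1246 probe sets (1.20%), and the Idua difference was 0.43 ± 0.09 (SE; limma adjusted p = 0.0216).

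Hpse encodes heparanase, which cuts the chain inside. It read 10.40, 10.42 and 10.13 in knockout and 10.74, 10.56 and 10.53 in wild-type hosts with Tm1N3 tumours. With Tm1G3 tumours Hpse read 11.14, 11.01 and 10.83 in knockout and 10.54, 11.03 and 11.00 in wild-type hosts. The lines overlapped in wild-type hosts and not in knockout hosts, where 7.95% of all probe sets were lower in Tm1N3 without overlap, and the averaged Hpse difference was -0.46 ± 0.10 (SE; limma adjusted p = 0.0235).

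The calls of Idua, Gpc6 and Hpse lay near the threshold, and leaving out 1 array could end them with the difference little changed. Idua's was lost without wild-type-host Tm1N3 replicate 1 or 2, knockout-host Tm1G3 replicate 2 or 3, or wild-type-host Tm1G3 replicate 2 or 3 (difference 0.39 to 0.44, limma adjusted p between 0.0517 and 0.0572). Gpc6's was lost without wild-type-host Tm1N3 replicate 1 or 3, knockout-host Tm1G3 replicate 1 or 2, or wild-type-host Tm1G3 replicate 2 or 3 (difference -0.42 to -0.38, limma adjusted p 0.0527 to 0.0717). Hpse's was lost without knockout-host Tm1N3 replicate 3, wild-type-host Tm1N3 replicate 2 or 3, knockout-host Tm1G3 replicate 1 or 2, or wild-type-host Tm1G3 replicate 2 or 3 (difference -0.46 to -0.42, limma adjusted p 0.0508 to 0.0717). With replicate numbers as a random block within a line the Hpse difference was the same and its call was also lost (limma adjusted p = 0.0756). The lysosomal genes Sgsh and Naglu, at 0.21 and 0.20, did not pass (limma adjusted p = 0.124 and 0.094), and Sulf1, an enzyme that removes 6-O-sulfate outside the cell, was at 0.26.

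Proteins that bind heparan sulfate and the other sulfotransferases were read the same way, beside the 4.25% called among all probe sets. Of 13 measured genes for heparan sulfate-binding growth factors and their receptors, Fgf1 was called lower at -0.53 ± 0.09 (SE; limma adjusted p = 0.00808), and Vegfa was at 0.49 (limma adjusted p = 0.124). Of 19 other sulfotransferase genes limma called 0, with Chst10 at -0.20 and Chst2 at 0.12. At an unadjusted p under 0.05 there was 1, beside 16.4% of all probe sets. Of 10 genes for other glycosaminoglycans, the hyaluronan synthase gene Has3 was called higher at 0.21 (limma adjusted p = 0.03), and the chondroitin sulfate gene Csgalnact1 was at 0.17.

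The genes whose levels ran most like Hs3st1 over the 12 arrays were Idua, Il3ra, Galc, Naglu and Fut11. Their Pearson correlations with Hs3st1 were 0.966, 0.945, 0.941, 0.919 and 0.919. Idua, Galc and Naglu encode lysosomal enzymes, Il3ra a chain of the interleukin-3 receptor and Fut11 a member of the fucosyltransferase family. These correlations were chosen as the highest of all named probe sets, hold the line difference, and come from values of the same arrays, so they are a description with no p-value. Over the 6 Tm1N3 arrays alone the correlation was 0.980 for Idua, 0.786 for Il3ra, 0.758 for Galc, 0.950 for Naglu and 0.863 for Fut11. Over the 6 Tm1G3 arrays alone it was 0.906 for Idua, 0.622 for Il3ra, 0.865 for Galc, -0.110 for Naglu and 0.927 for Fut11. Idua followed Hs3st1 within both lines. Naglu followed Hs3st1 among Tm1N3 arrays and not among Tm1G3 arrays. In Tm1G3 tumours Hs3st1 itself spanned only 4.25 to 4.65, which limits the correlations of all 5 genes there. The values within lines come from the same arrays by which the genes were chosen. With group means removed, the 5 most alike were Ctsa at 0.925, Slc35c1 at 0.907, Idua at 0.881, Slc35c2 at 0.878 and Sar1a at 0.874. Ctsa encodes cathepsin A, a lysosomal protease, Slc35c1 a carrier of GDP-fucose and Sar1a a GTPase of vesicle export from the endoplasmic reticulum. These too were chosen as the highest, and Tm1N3 arrays weigh most, as Hs3st1 varied more there. Over the 12 arrays Idua was alike at 0.966, while Ctsa was at -0.338, Slc35c1 at 0.094, Slc35c2 at 0.184 and Sar1a at -0.620.

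**Figure D4:**
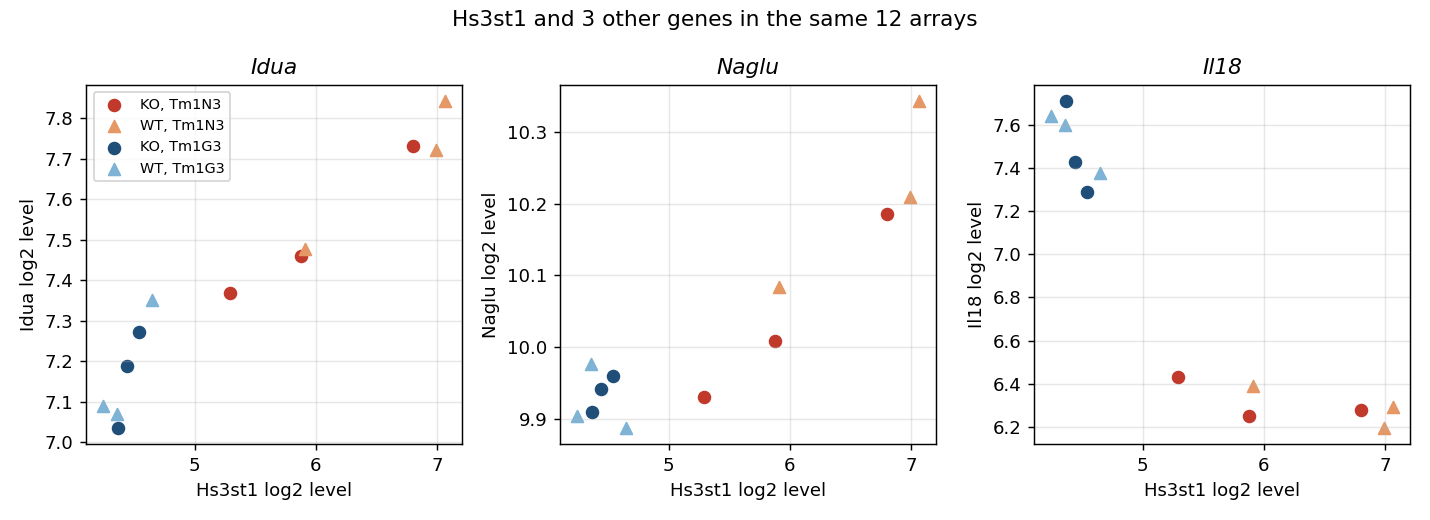
Log2 level of Idua, Naglu and Il18 against that of Hs3st1 in the 12 arrays (KO, knockout host; WT, wild-type host). Each point is 1 array. Idua and Naglu rise with Hs3st1 among Tm1N3 arrays, and Il18 is between 6.20 and 6.43 in Tm1N3 tumours and between 7.29 and 7.71 in Tm1G3 tumours.

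The genes that ran most opposite to Hs3st1 were Il18, an interleukin, at -0.917, the brain proteoglycan gene Bcan (brevican) at -0.868, the matrix gene Frem1 at -0.866, Rbpj, the transcription factor of Notch signalling, at -0.837, and Pfdn5, a prefoldin subunit, at -0.835. Within lines the signs of Il18 (-0.742 in Tm1N3 and -0.824 in Tm1G3) and Bcan (-0.719 in Tm1N3 and -0.940 in Tm1G3) were the same. Frem1, at 0.101 in Tm1N3 and 0.0522 in Tm1G3, had a correlation near 0 with Hs3st1 within each line. In Hs3st6 the correlation with Hs3st1 was 0.796 over 12 arrays, 0.716 in Tm1N3 and -0.861 in Tm1G3. In Lgals3 it was -0.130 within Tm1N3 and -0.286 within Tm1G3 arrays.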

How the data were processed

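Biotin-labelled cRNA made from the total RNA of 12 tumours was hybridised to Affymetrix arrays, as the labels' protocols state. The authors deposited log2 values and name RMA without a version, per the submitters' processing notes. RMA corrects background, sets arrays to 1 distribution and summarises probes. Scanner files were not used here, so signal over background is unknown, and precision is limited by the number of arrays.

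Of 1246 probe sets, 963 matched 1 symbol by RefSeq transcript in a GRCm38.p6 gene table; 275 carry the suffix for shared probes. No 2 arrays held identical values. The means of 4 groups were estimated from 12 arrays with limma 3.58.1 (lmFit, eBayes) in R 4.3.3, with 8 residual and 2.39 prior degrees of freedom, Benjamini-Hochberg adjustment over 1246 probe sets and a threshold of 0.05. The fit was tested on simulated data. Fold changes are antilogs. Errors are SD for levels and moderated SE for differences. Line differences of Hs3st1 were not tested.

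The gene, the lists and the tests were chosen with earlier results of these data known. Named genes are the Hs3st genes, Lgals3, called members of each list, the 3 largest averaged line differences per heparan sulfate list (2 per other list) and the 5 genes most alike, most opposite and most alike in deviations. Sgsh, Naglu as a breakdown gene, and the array values chosen for the plots fall outside this rule and were picked after their values were seen.

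Deviations of same-numbered arrays correlated at 0.184 to 0.752 between hosts of Tm1N3 and 0.249 to 0.308 between hosts of Tm1G3 tumours. Every pair exceeded 0.1, so the 2 hosts of a line were taken as paired by number, which the labels do not explain. The main fit and the exact test did not use this pairing, and the random replicate block within a line did. Between lines the correlations ran from -0.660 to 0.544, and numbers were not taken to pair them. Alternatives were renormalization, centring, a filter on dim probe sets, the groups compared alone, a trended robust fit, replicate blocks and leaving out each array.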

Additional observations from a re-analysis of the deposited data

How the results depend on the processing

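Under quantile normalization, centring on medians, leaving out the dimmest 25% of probe sets, a trended robust fit, a replicate block and a random replicate block within line (the last chosen after seeing the data), the averaged Hs3st1 line difference stayed between 1.89 and 1.92, and with 1 array left out between 1.69 and 2.08. The same leave-outs gave 1.13 to 1.89 in knockout hosts and 2.03 to 2.61 in wild-type hosts. The Hs3st1 host difference ranged from -1.07 (without knockout-host Tm1N3 replicate 2) to -0.32 (without replicate 1 of that group) in Tm1N3 tumours, from -0.52 to -0.14 averaged over lines, and the interaction from -1.11 to -0.35, none past the threshold. In Tm1G3 tumours the host difference ranged from -0.0483 to 0.15. It changed sign without wild-type-host replicate 3 (-0.0483) and without knockout-host replicate 1 (-0.00927), against a value of 0.04 with all arrays. The averaged line comparison called 53 probe sets, 32 (without knockout-host Tm1G3 replicate 2) to 63 (without wild-type-host Tm1G3 replicate 1) with 1 array left out, and the averaged host comparison 0 throughout. Quantile normalization called 57, 29 higher and 28 lower, against 16 and 37. Called heparan sulfate genes, 4 with all arrays, ranged from 1 to 4 with 1 array left out: 2 without any 1 wild-type-host Tm1N3 replicate or knockout-host Tm1G3 replicate 1, and 1 without knockout-host Tm1G3 replicate 2 or wild-type-host Tm1G3 replicate 2 or 3. The other Hs3st genes called ranged from 0 to 1. Quantile normalization called 5 heparan sulfate genes, with Naglu (limma adjusted p = 0.0160) and Slc35b3 (0.0420, adjusted) gained and Gpc6 lost (0.0532, adjusted). With the replicate block 50 probe sets were called, and the Hs3st1 host difference in Tm1N3 tumours kept adjusted p = 1.00; the random block (consensus correlation 0.273) called 40 and gave it limma adjusted p = 0.686, and lost Hpse (limma adjusted p = 0.0756). The paired fits changed no other call among the heparan sulfate genes. A fit of only the groups compared gives no averaged difference or interaction, and its Hs3st1 differences within hosts and lines kept their direction. The cause of these changes was not tested, beyond the smaller number of arrays when 1 is left out.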
